A study of Oryza sativa with 4 samples.

Results

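The genes for cytosolic ribosomal proteins were examined in leaves of rice that overexpressed the NAC transcription factor OsNAC14 and in non-transgenic leaves. A gene was taken as a member when the deposited description of at least 1 of its transcripts held the words "ribosomal protein" together with 40S, 60S or acidic. The rule found 175 of the 31414 genes in the table, 69 for the 40S and 106 for the 60S subunit, and it used no measured value. The 60S genes included 9 described as acidic. Of the members, 28 had several transcripts, and in 15 at least 1 of the summed transcripts carried another description. The description of 1 gene, Os03g0725000 (L6), names mitochondria, so the label "cytosolic" holds for the others only. The table held a further 66 genes described as organellar ribosomal proteins and 99 ribosomal protein genes whose descriptions gave no subunit size. Both of these lists were kept apart and used as neighbours. No member was described as S3, S6, S26, S27 or S28, and these are only some of the proteins that the members do not cover.

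The cytosolic ribosome joins a small 40S subunit, which holds the messenger RNA and decodes it, to a large 60S subunit, which forms the peptide bond. Most plant ribosomal proteins are encoded by several near-identical genes, which must together supply each protein in an amount that matches the others and the ribosomal RNA. In leaves these transcripts are most abundant while cells divide and expand.

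The series holds 4 leaf libraries. The 2 NT libraries came from non-transgenic plants of cultivar Nakdong. The 2 OsNAC14OX libraries came from plants carrying the OsNAC14 coding region behind the PGD1 promoter, which is active in the whole plant, and the methods describe them as the T4 generation of line 11, so a single transgenic line stands for the overexpression. Both groups grew under normal conditions with no drought. Plants were 2 weeks old in the methods and 20 days old in the sample labels, and the sample labels give the cultivar as Nipponbre. The study describes the libraries of a group as biological duplicates, without saying how many plants went into each.

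Values are FPKM, fragments mapped per kilobase of transcript, scaled to the size of the library, summed over the transcripts of a gene. The number of reads behind them is not known. OsNAC14 itself (Os01g0675800) stood at 3.16 and 3.70 FPKM in NT and at 16.4 and 16.3 FPKM in OsNAC14OX (log2 fold change 2.00, SE 0.10, limma adjusted p = 0.0153), which matched the labels. Summed FPKM per library lay between 735318 and 765959. The headers of the NT columns carry a year and those of OsNAC14OX do not, and if that marks a batch, it cannot be told apart from the overexpression. The 20 genes described as Rubisco small subunits or chlorophyll-binding proteins, which mark leaf tissue, had a median of 659 FPKM.

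Ribosomal protein transcripts were among the most abundant in these leaves. The 172 members that reached 1 FPKM in at least 2 libraries had a median of 146 FPKM, where the median of all 25811 genes that passed the same filter was 9.97 FPKM. The median member stood at percentile 97.1 of those genes, and 136 of the 172 stood above percentile 90. At least 100 FPKM was reached by 115 members, out of 1226 genes in the whole table. The medians of 40S and 60S genes were alike at 148 and 144 FPKM. Together the members held 3.75% and 3.69% of all FPKM in the NT libraries.

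The spread among members was wide. The highest was the stalk protein P1 (Os08g0116500), with 696 and 692 FPKM in NT and 579 and 630 FPKM in OsNAC14OX. Of the 40S genes, S21 (Os03g0345200) was highest, with 567 and 573 FPKM in NT against 507 and 551 FPKM in OsNAC14OX. At the other end, 15 of the tested members averaged under 20 FPKM. The 3 members that missed the filter, Os03g0379500 (S9), Os07g0670800 (L19) and Os11g0298500 (L7), stayed under 1 FPKM in every library.

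Summing the genes of each protein brought the levels closer together. The members fell into 24 named 40S proteins and 45 named 60S proteins, plus 1 acidic gene whose description gives no number (Os05g0445500). Proteins were told apart only by the name in the description, so 1 protein under different names counts more than once. Os05g0556900, counted as L33, also has a transcript described as L35Ae, and L35a (Os05g0555800) was counted apart. The L6 sum includes the gene whose description names mitochondria. Only 14 of the 69 named proteins had a single member gene, and S11 and L44 had the most, 6 each. The quartiles of the 69 sums were 229 and 515 FPKM, around a median of 333 FPKM. L28, with 1 gene (Os05g0541900), was lowest at a mean of 30.3 FPKM, and S19, with 5 genes, was highest at 1057 FPKM. Whether the transcripts of L28 are described elsewhere in the table under another name was not examined.

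**Figure D1:**
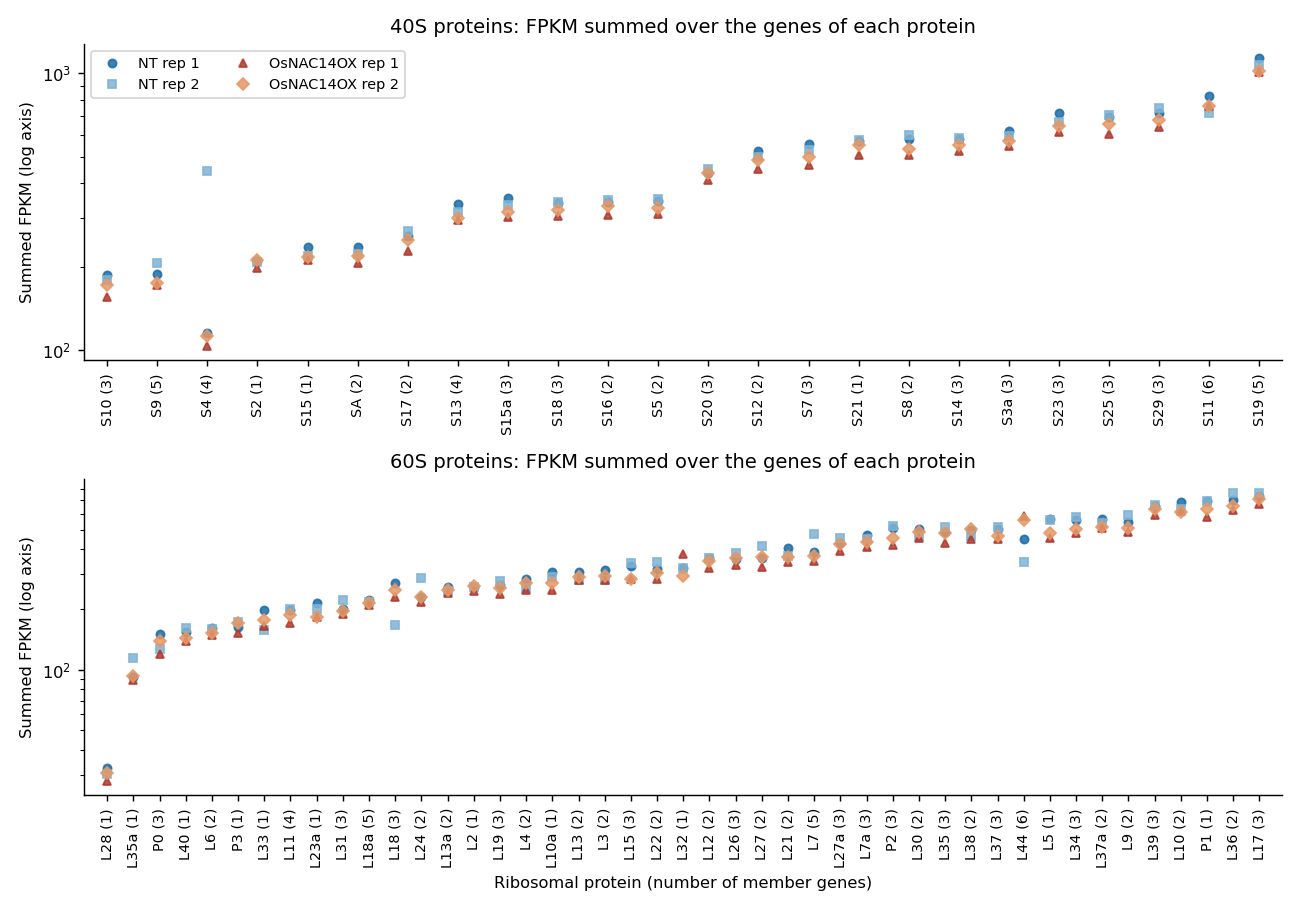
FPKM summed over the member genes of each 40S (upper) and 60S (lower) protein on a log axis, with 1 point for each of the 4 libraries and the number of genes in brackets. The OsNAC14OX points lay just under the NT points for most proteins, L44 was the 1 protein with both OsNAC14OX libraries above both NT libraries, and S4 and L18 each had an NT replicate 2 point far from the other 3.

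Within a protein, the genes contributed unequally. In the median protein with several genes the leading gene gave 55.0% of the sum, and in 7 proteins it gave over 80%. S4 was 1 of the 7 only through NT replicate 2, with 91.6% there and 69.0%, 70.7% and 69.1% in the other libraries. L13a had the highest leading share, with Os03g0756000 at 93.8% and Os11g0425800, at 16.0, 16.9, 14.4 and 14.7 FPKM, giving the rest. L44 had the lowest, 25.9%, over 6 genes. The ratio of the highest to the lowest gene gave another order. It was 2.91 in L44 against 1.07 in S12, and 15.1 in L13a against 697 in L7, where 1 gene missed the filter. The gene that led by its group mean was the same in NT and OsNAC14OX in every protein but S9, which helps form the channel where the messenger RNA enters. Os03g0154700 (S9) had 73.8 and 88.2 FPKM in NT and 61.3 and 64.5 FPKM in OsNAC14OX, and Os11g0602600 (S9) had 79.2 and 82.6 FPKM in NT and 69.0 and 71.4 FPKM in OsNAC14OX. The order of these genes also differed between the NT libraries themselves.

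No member changed between OsNAC14OX and NT by the test that was applied to all genes (limma, a fold of 2 or more at an adjusted p below 0.05), where 0.724% of all genes tested were called (0.314% higher, 0.411% lower). At an unadjusted p under 0.05, 5 members were higher and 5 were lower, 2.91% each, where 4.13% of all genes were higher and 5.53% lower. None of the 190 tested transcripts of members was called in a fit on transcripts, where 0.555% of all transcripts tested were. Of the 190, 11 had an unadjusted p under 0.05, 6 lower and 5 higher, where 5.31% of all transcripts were lower and 4.09% higher. The count of lower members depended on the scaling. It was 18 without quantile normalization, where 6.85% of all genes were lower, and 13 with median-ratio scaling, where 5.73% were.

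The members as a group lay slightly below NT. Median log2 fold changes were -0.06 for the 68 tested 40S genes and -0.06 for the 104 tested 60S genes, against -0.0026 for all genes tested. Of the 172 members, 128 (74.4%) were below 0, where 50.6% of all genes tested were. Both OsNAC14OX libraries lay below both NT libraries in 69 members (40.1%), where 21.5% of all genes did so, and above them in 13 (7.56%), where 19.6% of all genes did so. By subunit, 31 of 68 40S genes and 38 of 104 60S genes were below without overlap, and 3 and 10 were above. These are counts of genes that share a pathway and 4 libraries, and no test was run on them.

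On the deposited FPKM the same difference was a few percent. The summed FPKM of all members was 28212 and 28243 in NT and 25277 and 26527 in OsNAC14OX, a difference between the means of -8.24%. The NT libraries differed from each other by 0.108%, and the second OsNAC14OX library was 4.95% above the first. The sum over 40S genes was 11099 and 11180 FPKM in NT and 9827 and 10325 FPKM in OsNAC14OX. Over 60S genes it was 17114 and 17064 FPKM in NT and 15450 and 16203 FPKM in OsNAC14OX. Over all genes tested the difference was -2.24%. As a share of all FPKM, the members took 3.44% and 3.54% in OsNAC14OX.

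**Figure D2:**
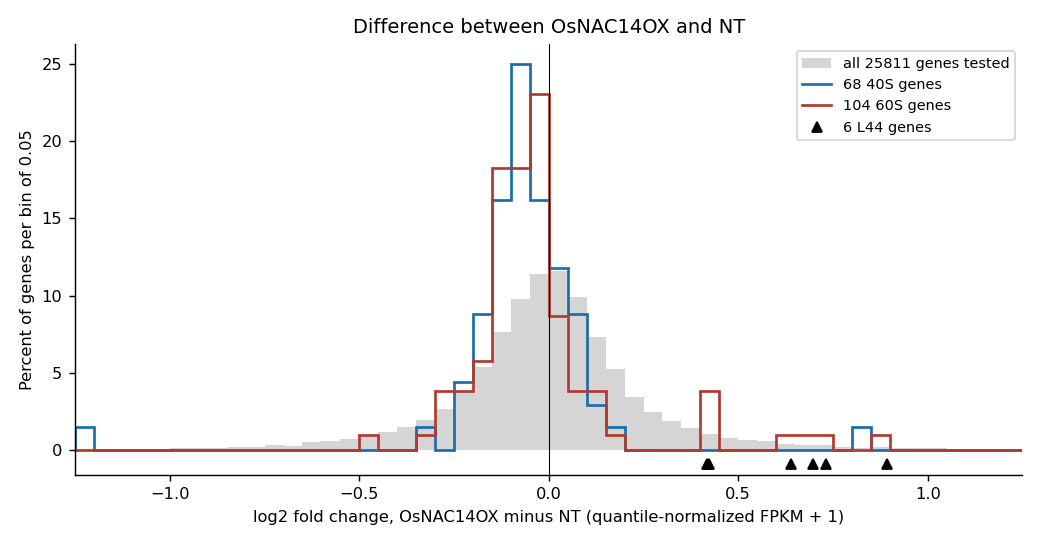
Histogram of log2 fold changes (OsNAC14OX minus NT, quantile-normalized FPKM + 1) in bins of 0.05, as a percent of the 25811 genes tested (grey), the 68 40S genes (blue) and the 104 60S genes (red), with the 6 L44 genes as triangles. Both subunits peaked just left of 0, with medians of -0.06, and the L44 genes lay between 0.42 and 0.89.

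Summed by protein, the small difference recurred in most of the named proteins. On deposited FPKM, both OsNAC14OX libraries were below both NT libraries for 21 of the 24 40S proteins and 28 of the 45 60S proteins, where 26.6% of all genes were below without overlap on that scale and 16.2% above. A sum over several genes varies less than 1 gene, so the shares are not of like kind. After each library was divided by its median ratio, 20 and 23 proteins were below, where 21.4% of all genes were below and 22.3% above on that scale. Before that division, on deposited FPKM, the median log2 ratio of the sums was -0.13 for 40S and -0.12 for 60S proteins. The median log2 fold change of all genes tested was -0.03 without normalization. The 3 40S proteins that overlapped were S2, S11 and S20. S2 (Os03g0807800), beside the channel for the messenger RNA, had 210 and 208 FPKM in NT and 198 and 211 FPKM in OsNAC14OX.

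The OsNAC14OX libraries did not differ from NT to the same extent. The first lay below the NT mean in 137 of 172 members, with a median difference of -0.090 on the log2 scale. The second did so in 103, with a median of -0.016. Over all 25811 genes tested, 14591 and 11661 lay below it, with medians of -0.035 and 0.021. The shift between these libraries was therefore not confined to the members. The second library was above the first in 142 members (82.6%), where it was above in 63.3% of all genes tested. Without the first OsNAC14OX library, the medians were -0.020 for 40S and -0.013 for 60S genes, where that of all genes tested was 0.021. On this normalized scale the medians of the members and of all genes therefore both moved up without that library. On deposited FPKM the second library's sum over members, 26527, was still below both NT sums. Without the first library, 21 of 24 40S proteins and 29 of 45 60S proteins were below both NT libraries on that scale. With fewer values to order, such counts rise in general. Of all genes, 33.8% were below without that library on the normalized scale, and the share on deposited FPKM was not computed.

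**Figure D3:**
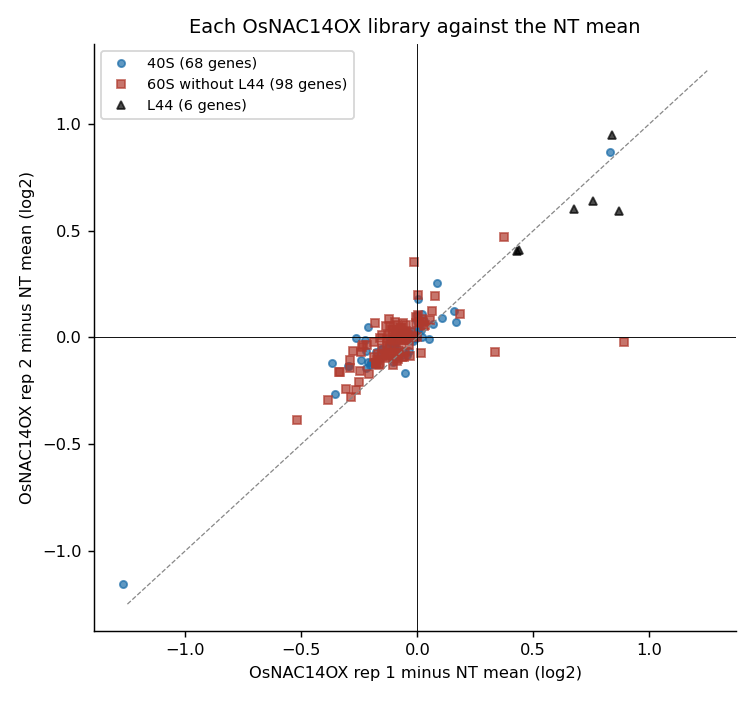
Difference of OsNAC14OX replicate 1 (horizontal) and replicate 2 (vertical) from the NT mean, log2 of quantile-normalized FPKM + 1, for the 172 tested members, with equal differences on the dashed line. Of the members, 142 lay above that line, and the 6 L44 genes lay at the upper right.

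Marker lists for other tissue states were summed in the same libraries. The 20 photosynthesis genes summed to 17701 and 17117 FPKM in NT and to 21278 and 24540 FPKM in OsNAC14OX, with 11 of 20 above NT without overlap (19.6% of all genes were), 7 higher at an unadjusted p under 0.05 (4.13% of all genes were) and 0 called. Their share of all FPKM was 2.36% and 2.23% in NT and 2.89% and 3.28% in OsNAC14OX. The 40 genes of dividing cells (cyclins, histones, replication licensing factors) summed to 2852 and 2851 FPKM in NT and to 2720 and 3004 FPKM in OsNAC14OX, and the groups overlapped. The 14 genes matched by root terms, a list that took in unrelated genes by their wording, summed to 626 and 614 FPKM in NT and to 323 and 562 FPKM in OsNAC14OX. The part of these lists in the ribosomal protein difference was not tested, and fewer cells of a type and less RNA per cell cannot be told apart in whole leaves.

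The acidic proteins form the stalk of the 60S subunit, where P0 anchors dimers of P1 and P2, and of the plant protein P3, that contact the elongation factors. Of the 9 genes, 0 were called, 5 lay below NT without overlap (21.5% of all genes did, and 40.1% of members) and 0 above (19.6% of all genes), with a median log2 fold change of -0.10. Their summed FPKM differed by -11.3% between OsNAC14OX and NT. The P1 gene described above had a log2 fold change of -0.10 (SE 0.07). The unnumbered acidic gene Os05g0445500 stood at 440 and 445 FPKM in NT and at 400 and 409 FPKM in OsNAC14OX.

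The 3 P2 genes differed in level and in how far apart the groups were. Os01g0191100 gave most of the P2 sum, with 332 and 325 FPKM in NT and 267 and 290 FPKM in OsNAC14OX. Os01g0231700 (P2) had 114 and 123 FPKM in NT and 100 and 112 FPKM in OsNAC14OX. The lowest, Os02g0529700 (P2), had 62.9 and 71.3 FPKM in NT and 50.8 and 52.5 FPKM in OsNAC14OX (log2 fold change -0.34, SE 0.10, limma unadjusted p = 0.0240, adjusted p = 0.406). The groups overlapped in none of the 3 on deposited FPKM, and none passed the test.

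In P0 and P3 the groups overlapped in all but 1 gene. Os08g0130500, the main P0 gene, had 119 and 96.9 FPKM in NT and 91.6 and 108 FPKM in OsNAC14OX. Os12g0133050 (P0) had 20.6 and 20.7 FPKM in NT and 19.7 and 21.0 FPKM in OsNAC14OX. Os11g0135400 (P0) had 11.1 and 9.80 FPKM in NT and 8.21 and 9.15 FPKM in OsNAC14OX. The last of these was the 1 P0 gene whose groups did not overlap. Os06g0701400 (P3) had 163 and 173 FPKM in NT and 153 and 171 FPKM in OsNAC14OX.

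Among the 40S genes, the most abundant after S21 encoded S8, S25 and S29. Os04g0349500 (S8) had 425 and 434 FPKM in NT and 380 and 396 FPKM in OsNAC14OX. Os08g0559200, for S25, which in yeast is needed for initiation at some internal entry sites, had 371 and 384 FPKM in NT and 317 and 346 FPKM in OsNAC14OX. Os12g0508300, for the zinc-binding S29, had 342 and 375 FPKM in NT and 321 and 328 FPKM in OsNAC14OX. All 3 lay below NT without overlap on deposited FPKM, with log2 fold changes of -0.11, -0.11 and -0.06, and none was called.

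The 40S genes farthest below NT were an S4 gene, which is described below, and genes for S9, S17 and S8. Os03g0154700 (S9), named above, was the 1 40S gene lower at an unadjusted p under 0.05 (log2 fold change -0.31, SE 0.11, limma unadjusted p = 0.0478, adjusted p = 0.511). Os03g0109500, the minor S17 gene, had 31.7 FPKM in both NT libraries and 24.2 and 28.3 FPKM in OsNAC14OX. Os02g0489400 (S8) had 155 and 165 FPKM in NT and 125 and 139 FPKM in OsNAC14OX.

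Few 40S genes lay above NT. Os02g0677800 (S13) had 10.5 FPKM in both NT libraries and 11.0 and 12.4 FPKM in OsNAC14OX. Os11g0602500, a minor S9 gene, had 31.2 and 35.6 FPKM in NT and 37.4 and 35.2 FPKM in OsNAC14OX. Its neighbour Os11g0602600, which lies 1707 bases further on chromosome 11, was lower in OsNAC14OX, as given above. Os03g0424500 (S19) had 230 and 209 FPKM in NT and 226 and 218 FPKM in OsNAC14OX, and its groups overlapped. Os10g0170200 (S20) had 234 FPKM in both NT libraries and 221 and 242 FPKM in OsNAC14OX. It was the last of the 3 40S genes above NT without overlap (4.41%, where 19.6% of all genes were). Os10g0170200 and Os11g0602500 were so only after normalization.

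The 60S genes with the highest levels, besides P1, encoded L36, L5 and L10. Os05g0459900 (L36) had 647 and 693 FPKM in NT and 579 and 607 FPKM in OsNAC14OX. Os01g0896700 encodes L5, which carries the 5S ribosomal RNA into the large subunit, and is the 1 gene for it in the table by this rule. It had 563 and 559 FPKM in NT and 455 and 482 FPKM in OsNAC14OX (log2 fold change -0.23, SE 0.07, limma unadjusted p = 0.0263, adjusted p = 0.414). Os05g0169100, for L10, which in yeast joins the subunit late in its assembly, had 486 and 449 FPKM in NT and 455 and 439 FPKM in OsNAC14OX. L5 stood apart from its group, while the L10 groups overlapped.

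Below NT in the 60S set were also genes for L24, L15, L36 and L7. Os07g0224000, the minor gene for L24, a protein that in Arabidopsis is needed for reinitiation after upstream reading frames, had 30.2 and 38.8 FPKM in NT and 23.5 and 25.2 FPKM in OsNAC14OX (log2 fold change -0.45, SE 0.15, limma unadjusted p = 0.0375, adjusted p = 0.468). Os01g0840700, the minor L36 gene, had 55.8 and 66.0 FPKM in NT and 49.4 and 48.4 FPKM in OsNAC14OX. Os05g0274900 (L15) had 110 and 121 FPKM in NT and 92.8 and 92.1 FPKM in OsNAC14OX, with a log2 fold change of -0.26. Os08g0234000, the main L7 gene, had 198 and 279 FPKM in NT and 179 and 189 FPKM in OsNAC14OX, so the NT libraries lay further apart than the groups did at their nearest. None passed the test over all genes. Os09g0568400, for L40, which is made as a fusion to ubiquitin, had 154 and 162 FPKM in NT and 140 and 143 FPKM in OsNAC14OX.

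L44 was the 1 protein whose summed FPKM lay above NT without overlap. L18 and L32 also had a ratio above 1, at 1.10 and 1.04, with groups that overlapped. It is a large-subunit protein near the site from which the used tRNA leaves, and in yeasts a change in it gives resistance to cycloheximide. All 6 of its genes lay above NT without overlap, where 19.6% of all genes did so. Of the 6, 5 were the 5 members higher at an unadjusted p under 0.05, where 4.13% of all genes were. As copies may share reads, the 6 genes are not separate results. Their sum was 449 and 343 FPKM in NT and 584 and 557 FPKM in OsNAC14OX, a ratio of 1.44. Against the first NT library alone the ratio was 1.27 and against the second 1.66. L44 was singled out after its values were seen, and no L44 gene was called.

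All 6 genes lie on chromosome 7 (coordinates as deposited, build IRGSP-1.0). Os07g0450000 begins at position 15448860 and had the clearest separation, with 30.7 and 29.4 FPKM in NT and 54.5 and 57.1 FPKM in OsNAC14OX (log2 fold change 0.89, SE 0.09, limma adjusted p = 0.0569). Without quantile normalization its adjusted p was 0.0455 and with median-ratio scaling 0.0362, with the fold under 2 in both, and over all 12 alternatives the adjusted p lay between 0.0169 and 0.738. The highest of those values came without NT replicate 2.

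The other 5 L44 genes form an array between positions 20256756 and 20312255, 55500 bases in all. Os07g0523700 was the highest, with 108 and 93.0 FPKM in NT and 153 and 146 FPKM in OsNAC14OX (log2 fold change 0.64, SE 0.11, limma adjusted p = 0.184). Os07g0523150 had 62.2 and 39.8 FPKM in NT and 83.1 and 75.8 FPKM in OsNAC14OX. Its neighbour Os07g0523100 had 49.5 and 26.4 FPKM in NT and 66.1 and 53.3 FPKM in OsNAC14OX, and was the 1 L44 gene with an unadjusted p above 0.05 (limma adjusted p = 0.602). In these genes the NT libraries lay further apart than the OsNAC14OX libraries did.

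Os07g0523300 and Os07g0523500 could hardly be told apart. The former had 99.1 and 77.3 FPKM in NT and 114 and 112 FPKM in OsNAC14OX, and the latter 99.1 and 77.2 FPKM in NT and 113 and 112 FPKM in OsNAC14OX. Their values differed by at most 0.847% in any library, and each spans 964 bases, as does Os07g0523700. How reads that fit several copies were shared out is not stated, so the values of single genes in the array are uncertain and their sum is the firmer number. The sum over the array was 418 and 314 FPKM in NT and 529 and 500 FPKM in OsNAC14OX.

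**Figure D4:**
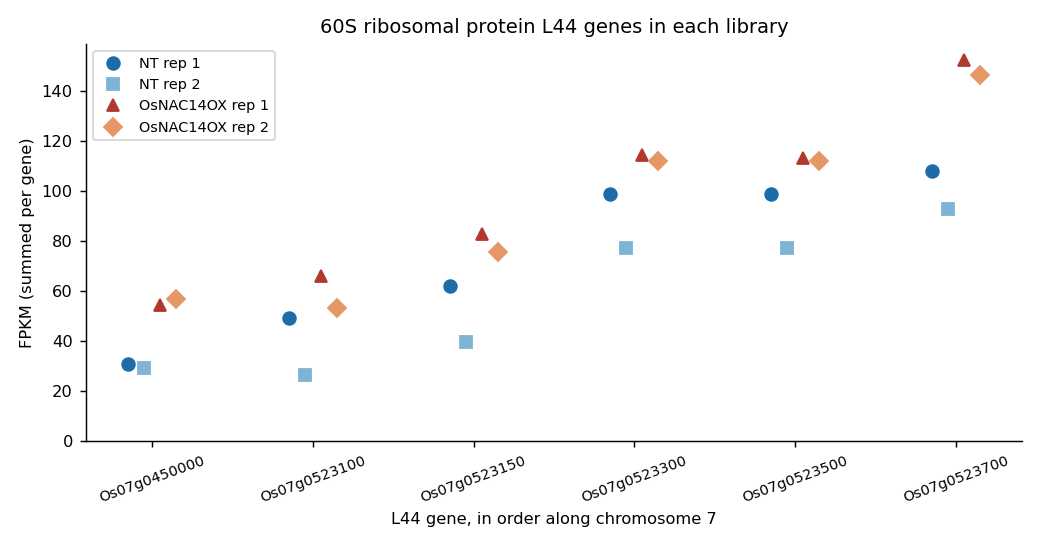
FPKM of the 6 L44 genes, in order along chromosome 7, in each of the 4 libraries. Both OsNAC14OX points lie above both NT points for each gene, and NT replicate 2 lies below NT replicate 1 in all 6, for example 26.4 against 49.5 FPKM in Os07g0523100.

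The genes between the L44 copies did not share their direction. Os07g0523400, described as a glucose-6-phosphate/phosphate translocator, had 17.1 and 21.1 FPKM in NT and 16.5 and 15.9 FPKM in OsNAC14OX. Os07g0523600, of the same description, had 49.4 and 45.3 FPKM in NT and 40.8 and 42.4 FPKM in OsNAC14OX. Both lay below NT without overlap. Outside L44, the 16 tested members on chromosome 7 had a median log2 fold change of -0.028. Of these, 4 lay below NT and 2 above without overlap, where 21.5% of all genes were below and 19.6% above. Those above were Os07g0546700, an L38 gene with 286 and 266 FPKM in NT and 268 and 301 FPKM in OsNAC14OX, and Os07g0674700, a minor L18 gene. On deposited FPKM, only 7 members in all were above without overlap, the 6 L44 genes and Os02g0677800 (S13), where 16.2% of all genes were.

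Several members had 1 library far from the other 3. Replicates differed by over 1.5-fold in 6 members between the NT libraries (3.49%, against 2.77% of all genes tested) and in 1 member between the OsNAC14OX libraries (0.581%, against 10.6%). Of the 6, Os07g0523100 and Os07g0523150 belong to L44.

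The widest gap was in S4. Os02g0105900, which gave most of the S4 sum, had 79.4 and 406 FPKM in NT and 73.2 and 77.7 FPKM in OsNAC14OX. The second NT library alone was high, and the other 3 lay between 73.2 and 79.4 FPKM. Its log2 fold change of -1.21 (SE 0.81) was the lowest of all members and rested on that library. The other 3 S4 genes, Os01g0358400, Os04g0662100 and Os05g0368300, had between 5.26 and 20.4 FPKM in every library and showed no such gap.

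NT replicate 2 also stood apart, in the opposite direction, for L18 and a minor S9 gene. Os05g0155100 (L18) had 198 and 91.2 FPKM in NT and 164 and 178 FPKM in OsNAC14OX. Os07g0628400 (S9) had 4.18 and 0.453 FPKM in NT and 3.81 and 4.01 FPKM in OsNAC14OX. Os06g0732000 (L35) had 1.30 and 3.23 FPKM in NT and 1.80 and 2.26 FPKM in OsNAC14OX. In OsNAC14OX the 1 such gene was Os01g0667100 (L18a), with 20.4 FPKM in replicate 1, 10.3 FPKM in replicate 2 and 10.8 and 10.5 FPKM in NT. L32 (Os08g0524600) was milder, with 380 FPKM in OsNAC14OX replicate 1 and 293, 322 and 323 FPKM in the others.

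**Figure D5:**
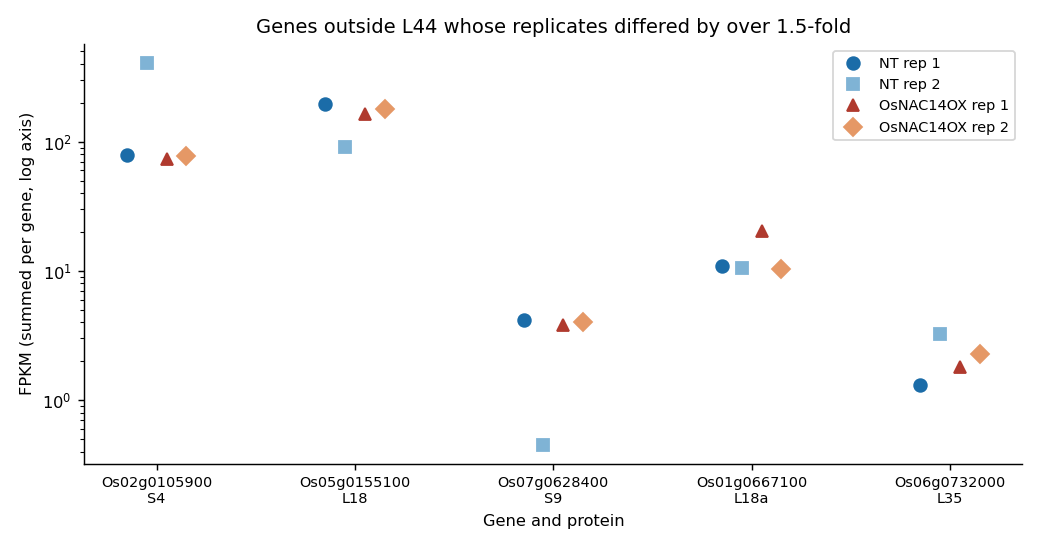
FPKM on a log axis, in each library, of the 5 members outside L44 whose replicates differed by over 1.5-fold. NT replicate 2 is the odd point in S4 (406 FPKM), L18 (91.2 FPKM) and S9 (0.453 FPKM), and OsNAC14OX replicate 1 in L18a (20.4 FPKM).

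Some copies lay side by side. In 11 proteins, 15 pairs of neighbouring members lay at most 20000 bases apart. In the S7 pair on chromosome 3, 2075 bases apart, Os03g0297100 had 242, 238, 196 and 212 FPKM and Os03g0297300 had 113, 116, 97.5 and 105 FPKM, in the order NT 1, NT 2, OsNAC14OX 1 and OsNAC14OX 2. The S18 pair on chromosome 7 was less even, with Os07g0173501 at 155, 152, 135 and 141 FPKM and Os07g0173700 at 11.0, 12.0, 9.55 and 10.7 FPKM. Both copies of each pair were below NT without overlap.

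Other copies lie near the matching ends of chromosomes 11 and 12. Os11g0127900 (S16) had 181, 183, 158 and 169 FPKM in the same order and Os12g0124200 (S16) had 163, 166, 149 and 161 FPKM. Os11g0168200 (L3) had 151, 132, 136 and 142 FPKM and Os12g0167900 (L3) had 164, 148, 145 and 152 FPKM. The copies had similar levels in S16 and L3, whereas the P0 copy on chromosome 12 given above was well above that on chromosome 11. Reads shared between such copies leave their separate values uncertain.

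The neighbouring lists of the translation machinery held 0 genes called by limma. For the counts that follow, 21.5% of all genes tested were below NT without overlap and 19.6% above, and 5.53% were lower and 4.13% higher at an unadjusted p under 0.05. Of 66 organellar ribosomal protein genes, 27 lay below NT without overlap and 4 above, 8 were lower and 0 higher at an unadjusted p under 0.05, and the median log2 fold change was -0.10. In contrast to the members, the organellar genes were further below NT in the second OsNAC14OX library (median -0.134) than in the first (-0.043). Of the 96 tested ribosomal protein genes with no stated subunit size, 40 lay below and 5 above without overlap, with 9 lower and 1 higher at an unadjusted p under 0.05 and a median of -0.07. Ribosome biogenesis genes, which process ribosomal RNA and assemble subunits, gave 12 below and 0 above of 26, none at an unadjusted p under 0.05, with a median of -0.07.

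Genes that act on the finished ribosome followed. Initiation factors, which load the messenger RNA on the 40S subunit, had a median of -0.02 with 16 of 56 below and 6 above. Elongation factors had a median of -0.0008 with 3 of 25 below and 5 above. Their summed FPKM differed by -7.86% between the groups, where that of all genes tested differed by -2.24%. Between the NT libraries alone the sum over elongation factors differed by -4.54%. Transfer RNA synthetases had a median of -0.03 with 13 of 54 below and 11 above. The 4 genes described as Raptor or S6 kinase, parts of a pathway that signals growth to the ribosome, gave 1 below and 1 above, with a median of -0.05. At an unadjusted p under 0.05, 1 initiation factor was higher and 0 lower, 1 synthetase gene was higher and 2 lower, and 0 elongation factors and 0 kinase or Raptor genes stood out. Differences between these lists and the members were not tested.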

How the data were processed

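RNA from leaves of 2 NT and 2 OsNAC14OX samples was sequenced on an Illumina instrument. The authors trimmed single-end reads with Trimmomatic, removed reads of low quality and mapped the rest with TopHat to the RAP-DB annotation of IRGSP-1.0. Neither the software behind the FPKM nor the handling of reads that map to several genes is given in the sources used. The authors deposited FPKM and normalized log2 values per transcript. The labels name a strand-specific library method and the methods a TruSeq kit. Depth is unknown, so no counting interval is given. The table also holds 4 columns of per-sample values that match no sample of the series and columns of the authors' own fold changes and p-values, which were not used.

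FPKM were summed per gene, log2(FPKM + 1) was quantile normalized over the 4 libraries, and genes with at least 1 FPKM in at least 2 libraries were fitted with limma 3.58.1 (lmFit, eBayes with trend, two-sided, no covariate) in R 4.3.3. Fold changes are on this log2(FPKM + 1) scale, which understates changes of low genes. P-values were adjusted by Benjamini-Hochberg over all 25811 genes tested, and calling a gene took a fold of 2 or more with an adjusted p below 0.05. An exact permutation test of 2 against 2 samples cannot go below 0.333, so none is given. The fit was tested on simulated data. The members and lists were chosen with earlier results of these data known.

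Genes named by rule were all acidic genes, the 4 most abundant and the 4 with the largest and the 4 with the smallest log2 fold change per subunit, called members, ubiquitin fusions, S6 genes and every gene of a protein whose leading gene differed between groups. The L44 genes outside that rule, L15 as a lower member, the genes given to name a small count, the genes of single-library deviations and the copies shown as pairs were named after their values were seen. Alternatives were another normalization, pseudocount, filter, unit, design, threshold and membership, and each library left out.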

Additional observations from a re-analysis of the deposited data

How the results depend on the processing

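No member was called under any alternative, of which leaving out the L44 genes or the gene described as mitochondrial, and the family sums divided by the median ratio or without a library, were chosen after seeing the data. In the reported fit none passed an adjusted p under 0.05 without the fold threshold, or a fold of 2 at an unadjusted p under 0.05. Without the fold threshold Os07g0450000 (L44) would pass in 4 alternatives, at adjusted p = 0.0455 without quantile normalization, 0.0362 with median-ratio scaling, 0.0288 without OsNAC14OX replicate 1 and 0.0169 without OsNAC14OX replicate 2 (limma). Where 1 library is left out the lone sample is assumed to vary like the other group. The share of all genes at an unadjusted p under 0.05 also moved with the library left out. Counts of members at that p in those fits therefore do not show a change particular to the members. With no trend of the variance, 5.59% of all genes were lower at that p, where 5.53% were as reported. Without quantile normalization 3.46% of all genes were higher, where 4.13% were as reported. Members lower at an unadjusted p under 0.05 (5 as reported) numbered 18 without quantile normalization, where 6.85% of all genes did, 13 with median-ratio scaling, 2 with no trend of the variance, and 0 to 11 with a library left out, 0 without NT replicate 2 or OsNAC14OX replicate 1. Members higher at that p (also 5) numbered 3 without quantile normalization, 2 among genes of which every transcript matches, 0 without L44, and 2 to 8 with a library left out. Members above NT without overlap (13, where 19.6% of all genes were) numbered 7 without quantile normalization (16.2% of all genes) and 7 without L44. With a library left out, where fewer values need to be ordered, they numbered 17 to 45 (28.1% to 41.5%). Members below (69, where 21.5% were) numbered 99 without quantile normalization (26.6% of all genes) and 92 with median-ratio scaling (21.4%). With a library left out they numbered 73 to 116 (31.9% to 45.8%). The median log2 fold changes were -0.13 (40S) and -0.12 (60S) without quantile normalization, against -0.03 for all genes. With a library left out they were -0.090 to -0.020 (40S) and -0.091 to -0.013 (60S), against -0.035 to 0.021 for all genes. The cause of these shifts was not tested.

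Replicate numbers are shared by the groups, but the labels tie them to nothing, and the replicate differences of NT and OsNAC14OX were uncorrelated over genes (-0.0109). With the replicate number as a block, 0 members were called and 3 were lower at an unadjusted p under 0.05.

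Of 419 values of the 35 tested named genes under alternatives, 407 kept their sign and 0 were called. The other 12 were small. Os06g0701400 had -0.057 without quantile normalization and -0.018 with median-ratio scaling, and Os12g0133050 had -0.022 without quantile normalization. With a library left out, Os05g0169100 ranged from -0.093 to 0.034, Os06g0701400 from -0.063 to 0.066, Os07g0628400 from -0.085 to 1.78, Os08g0130500 from -0.21 to 0.099, Os12g0133050 from -0.050 to 0.057 and Os12g0508300 from -0.14 to 0.0087. All 72 values of L44 genes lay above 0, between 0.24 and 1.18.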
